A study of Mus musculus with 6 samples.

Results

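The genes described here are 9 genes of Schwann cells and of peripheral myelin, Pmp22, Prx, Egr2, Pou3f1, Ncmap, Cdh19, Pmp2, Drp2 and Dhh, measured by RNA sequencing in the spinal cord of newborn mice. They were chosen by symbol, and each matched 1 row among the 55487 genes of the deposited table. The study compared Myt1-/- mice, which carry no working copy of the neural zinc finger gene Myt1, with wild-type mice (WT) at postnatal day 0, to find genes that depend on Myt1 in the thoracic cord. There were 3 Myt1-/- libraries and 3 WT libraries, and the labels name no other allele or treatment. The labels give neither the deleted part of Myt1 nor whether each library is a different animal; the p-values therefore reflect the spread of these libraries alone, which may be technical. Values are TPM, which express a transcript's level per unit of its length as a share of the library. They hold no read counts, so the depth is unknown. Myt1 itself lay between 5.28 and 6.14 TPM in the Myt1-/- libraries, against between 11.53 and 13.61 TPM in the WT libraries. It was thus lower in the libraries labelled Myt1-/-. Transcript remained there, so this level alone does not show that no working copy was left.

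Schwann cells are the glia of peripheral nerves. They descend from the neural crest, line the nerve roots and wrap peripheral axons in myelin, while oligodendrocytes make the myelin of the central nervous system. Axonal neuregulin acts through ErbB receptors on Schwann cells that express Sox10, which together with Pou3f1 (also called Oct6) switches on Egr2 (also called Krox20). Egr2 in turn drives genes of the peripheral myelin sheath. Several of the genes are also used by other cells: Pmp22 is found in many tissues, and Pou3f1 in neurons and oligodendrocyte precursors. These are examples, and bulk cord does not show which cells a transcript came from, for Drp2 or any other member.

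Of the 9 genes, 3 had every Myt1-/- library below every WT library, and these were Pmp22, Prx and Ncmap. The RefSeq promoter table (GRCm38.p6) held 5 of the 9 genes, and the 250 bases before the most upstream listed start of these 3 are shown because their levels separated the genotypes. The motif searched was the EGR core GTGGGNG, on both strands, together with the SOX motif ACAANG, on both strands. Capitals mark the letters of a match, and no matches overlapped. The Prx window is chr7:27499074-27499323 on the plus strand, the Ncmap window chr4:135398228-135398477 on the minus strand, and the Pmp22 window chr11:63128732-63128981 on the plus strand.
Prx: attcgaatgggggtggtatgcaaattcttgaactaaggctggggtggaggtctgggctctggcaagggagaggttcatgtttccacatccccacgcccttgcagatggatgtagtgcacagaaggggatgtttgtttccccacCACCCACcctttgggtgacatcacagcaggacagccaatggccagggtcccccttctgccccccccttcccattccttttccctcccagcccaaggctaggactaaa
Ncmap: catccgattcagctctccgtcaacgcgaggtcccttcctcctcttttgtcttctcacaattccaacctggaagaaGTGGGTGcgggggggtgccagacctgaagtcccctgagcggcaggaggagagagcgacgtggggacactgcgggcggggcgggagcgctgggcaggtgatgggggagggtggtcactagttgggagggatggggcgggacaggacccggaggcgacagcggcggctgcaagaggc
Pmp22: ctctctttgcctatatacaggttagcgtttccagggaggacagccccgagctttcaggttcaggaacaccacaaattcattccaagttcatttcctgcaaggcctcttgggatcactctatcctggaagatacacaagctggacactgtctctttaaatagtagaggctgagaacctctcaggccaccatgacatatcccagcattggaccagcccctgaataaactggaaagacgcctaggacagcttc
The Prx and Ncmap windows each held 1 EGR core match, and the Pmp22 window held 0 matches of either motif. The most upstream windows of Egr2 and Dhh, whose groups overlapped, held 2 and 1 EGR core matches. In the Prx window the match read CACCCAC and stood on the strand opposite to the gene, from -107 to -101 relative to the start. In the Ncmap window it read GTGGGTG on the gene's own strand, from -175 to -169. The EGR core occurred in 28.1% of all 32851 promoter windows of that length and the SOX motif in 36.3%, so a match is common and only describes the letters.

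The structural genes of the sheath come first. Pmp22 (ENSMUSG00000018217, chromosome 11, 63128982 to 63159547, plus strand, GRCm38) encodes a membrane protein of compact peripheral myelin. It was measured at 65.63, 51.81 and 45.10 TPM in the Myt1-/- libraries, against 76.91, 71.93 and 96.46 TPM in the WT libraries. The highest Myt1-/- value lay below the lowest WT value, and WT replicate 3 was the highest of all. Pmp22 averaged 54.2 ± 10.5 TPM in Myt1-/- and 81.8 ± 13.0 TPM in WT (SD, n = 3 each), 1.51-fold lower in Myt1-/-. Expressed as log2(TPM + 1), a scale that compresses differences between low values, the difference was -0.59 (SE 0.16, 95% interval -0.97 to -0.21). Its adjusted p over all 15962 genes tested was 0.669 by limma, so it did not pass 0.05, and its unadjusted p was 0.0084.

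Ncmap (ENSMUSG00000043924, chromosome 4, 135369576 to 135398227, minus strand), which encodes a protein of noncompact myelin, had 0.98, 0.60 and 0.84 TPM in the Myt1-/- libraries, against 2.44, 1.70 and 1.32 TPM in the WT libraries. The groups did not overlap, though the gap between the nearest libraries was small. The mean was 0.807 ± 0.192 TPM in Myt1-/- and 1.82 ± 0.570 TPM in WT (SD, n = 3 each), 2.26-fold lower in Myt1-/-, with a log2 difference of -0.63 (SE 0.21, 95% interval -1.13 to -0.12). Its adjusted p by limma was 0.669 and its unadjusted p 0.022. Pmp2 (ENSMUSG00000052468, chromosome 3, 10179851 to 10183929, minus strand) encodes a fatty acid binding protein of peripheral myelin. Pmp2 had 0.98, 0.59 and 0.56 TPM in the Myt1-/- libraries, against 3.72, 1.67 and 0.97 TPM in the WT libraries. The groups touched, since the lowest WT library, replicate 3, lay at the level of the highest Myt1-/- library. Its mean was 2.99-fold lower in Myt1-/- and its log2 difference -0.78 (SE 0.34, 95% interval -1.58 to 0.02), with an adjusted p of 0.671 by limma. Much of that mean rested on WT replicate 1: without it the log2 difference of Pmp2 was -0.43.

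Prx and Drp2 encode partner proteins. Periaxin, the product of Prx, binds DRP2, the product of Drp2, in a complex with dystroglycan at the outer surface of the myelinating Schwann cell. Prx (ENSMUSG00000053198, chromosome 7, 27499324 to 27520214, plus strand) had 5.02, 3.39 and 3.93 TPM in the Myt1-/- libraries, against 12.29, 5.46 and 8.01 TPM in the WT libraries. The groups did not overlap, but WT replicate 2 lay close to Myt1-/- replicate 1. The mean was 4.11 ± 0.830 TPM in Myt1-/- and 8.59 ± 3.45 TPM in WT (SD, n = 3 each), 2.09-fold lower in Myt1-/-. The log2 difference was -0.86 (SE 0.27, 95% interval -1.50 to -0.21), with an adjusted p of 0.669 by limma and an unadjusted p of 0.017.

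Drp2 (ENSMUSG00000000223, chromosome X, 134404551 to 134456573, plus strand) went the other way. It had 16.26, 16.59 and 16.64 TPM in the Myt1-/- libraries, against 12.09, 15.58 and 15.52 TPM in the WT libraries. Every Myt1-/- library lay above every WT library, and WT replicate 1, the highest library for Prx, was the lowest for Drp2. The log2 difference of Drp2 was 0.19 (SE 0.11, 95% interval -0.07 to 0.45), with an adjusted p of 0.719 by limma. Without WT replicate 1 it was 0.08. The ratio of the 2 levels within a library, Prx TPM over Drp2 TPM, was 0.309, 0.204 and 0.236 in the Myt1-/- libraries, against 1.02, 0.350 and 0.516 in the WT libraries. This ratio does not depend on how the libraries are scaled. Its groups could not overlap, because Prx lay below and Drp2 above every WT library in Myt1-/-. Their separation therefore adds nothing to the results for each gene. By these ratios Drp2 was the more abundant transcript in 5 of the 6 libraries.

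Cdh19 (ENSMUSG00000047216, chromosome 1, 110888326 to 110977584, minus strand) encodes a cadherin that marks Schwann cell precursors and immature Schwann cells. It had 1.99, 0.96 and 1.31 TPM in the Myt1-/- libraries, against 2.31, 1.34 and 2.18 TPM in the WT libraries. The groups overlapped, with Myt1-/- replicate 1 above WT replicate 2. The log2 difference was -0.29 (SE 0.23, 95% interval -0.84 to 0.27), with an adjusted p of 0.768 by limma. The difference was -0.15 without Myt1-/- replicate 2, -0.45 without Myt1-/- replicate 1 and -0.44 without WT replicate 2.

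The transcription factors of the group differed from each other. Egr2 (ENSMUSG00000037868, chromosome 10, 67535475 to 67542188, plus strand) had 1.22, 0.73 and 0.44 TPM in the Myt1-/- libraries, against 3.01, 0.45 and 1.84 TPM in the WT libraries. The WT libraries spanned a 6.69-fold range, and WT replicate 2 was as low as the lowest Myt1-/- library. The log2 difference of Egr2 was -0.53 (SE 0.39, 95% interval -1.47 to 0.41), with an adjusted p of 0.763 by limma. With WT replicate 1 left out the difference was -0.20, and with WT replicate 2 left out it was -0.93, so single WT libraries set its size. Pou3f1 (ENSMUSG00000090125, chromosome 4, 124656807 to 124660655, plus strand) had 3.0, 3.78 and 4.80 TPM in the Myt1-/- libraries, against 4.87, 3.78 and 3.73 TPM in the WT libraries. The groups overlapped throughout, and the log2 difference was -0.09 (SE 0.18, 95% interval -0.52 to 0.34), with an adjusted p of 0.917 by limma. Its sign turned without WT replicate 1, to 0.015, and without Myt1-/- replicate 1, to 0.046. Without Myt1-/- replicate 3 the difference was -0.22, without WT replicate 2 it was -0.13 and without WT replicate 3 it was -0.14.

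Dhh (ENSMUSG00000023000, chromosome 15, 98891152 to 98898540, minus strand) encodes desert hedgehog, a ligand that Schwann cells send to the perineurium, the sheath around nerve fascicles. It had 2.53, 2.22 and 1.66 TPM in the Myt1-/- libraries, against 4.06, 2.20 and 4.19 TPM in the WT libraries. WT replicates 1 and 3 stood above all others, and WT replicate 2 lay inside the Myt1-/- range. The log2 difference was -0.49 (SE 0.23, 95% interval -1.05 to 0.07), with an adjusted p of 0.678 by limma. The annotated span of Dhh overlaps Rhebl1 on the same strand, which reached 9.57 TPM, so reads of the shared part could have been assigned to either gene and the level of Dhh is uncertain. Of the other members, Prx and Pou3f1 overlap antisense genes of at most 0.52 TPM. Cdh19 and Pmp2 overlap genes on the same strand, of at most 0.06 TPM, and Ncmap overlaps a pseudogene on the opposite strand at 0 TPM.

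**Figure D1:**
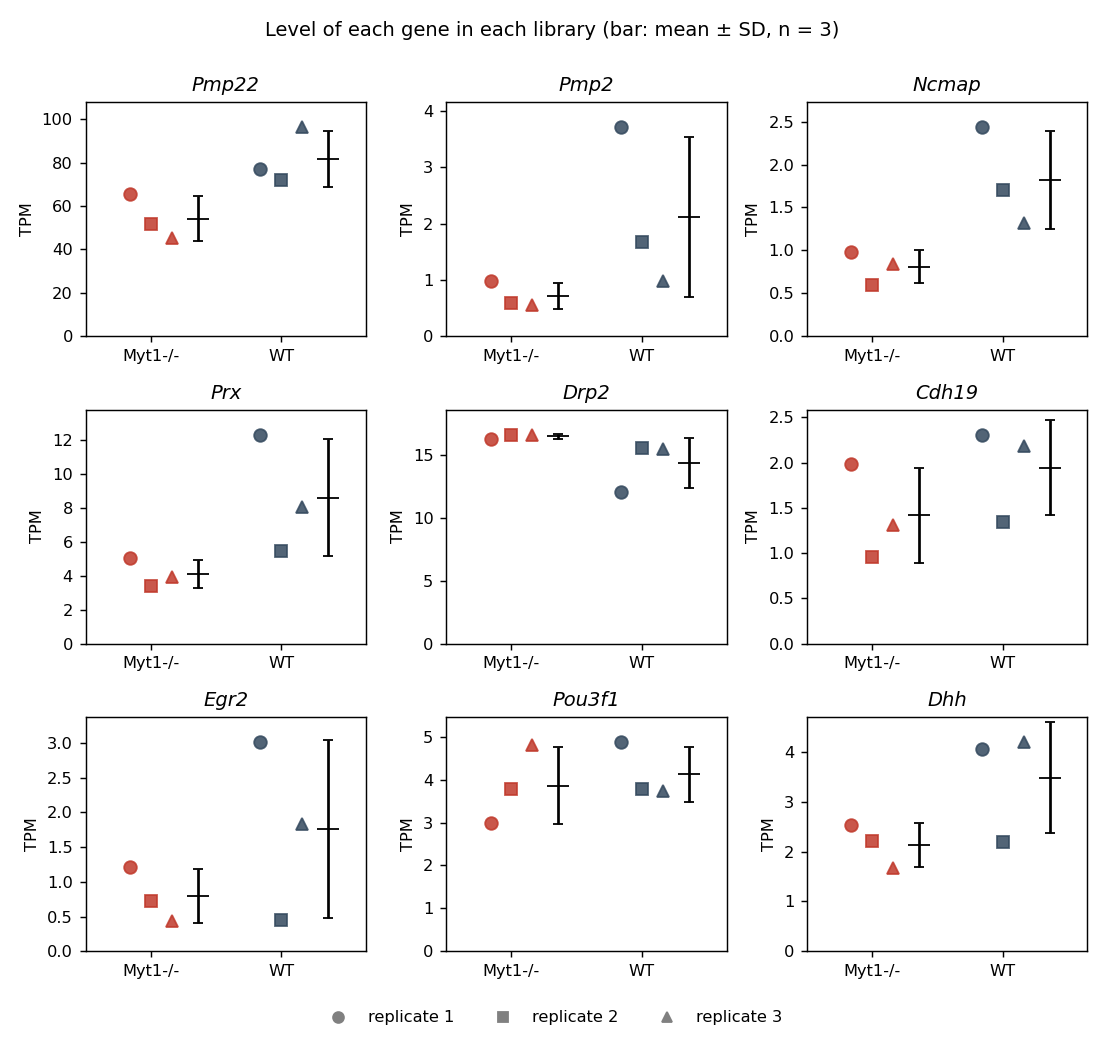
Level of each gene in each library, in TPM on an axis from 0, with Myt1-/- libraries in red on the left and WT libraries in dark blue on the right; markers give the replicate number and bars the mean ± SD (n = 3). The groups are separate for Pmp22, Ncmap, Prx and, in the other direction, Drp2, while WT replicate 2 falls among the Myt1-/- libraries for Egr2, Cdh19 and Dhh.

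By mean level in WT, Pmp22 (81.8 TPM) stood apart, at the 87.4th percentile of the genes tested, followed by Drp2 (14.4 TPM) and Prx (8.59 TPM), which crossed in WT replicate 1. Pou3f1 (4.13 TPM) and Dhh (3.48 TPM) overlapped each other across the WT libraries. Pmp2 (2.12 TPM), Cdh19 (1.94 TPM), Ncmap (1.82 TPM) and Egr2 (1.77 TPM) did not differ from their neighbours in this order beyond their spread. All 9 genes passed the filter of a mean of at least 1 TPM. Egr2, Ncmap and Pmp2 averaged under 1 TPM in Myt1-/-, so they passed through their WT libraries, and without WT replicate 1 the mean over the remaining libraries was 0.936 TPM for Egr2 and 0.954 TPM for Pmp2. The size of the log2 difference of these low genes depends on the pseudocount: at 0.1 TPM in place of 1 it was -1.06 for Ncmap, -1.29 for Pmp2, -0.83 for Egr2 and -0.45 for Cdh19, and 0 of them passed.

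Across the whole table, limma called 0 of 15962 genes at an adjusted p of 0.05 (0%), and 0 of the 9 genes. At an unadjusted p under 0.05 there were 499 lower genes (3.13%) and 690 higher genes (4.32%), and after median-ratio scaling 656 lower and 551 higher. Of the 9 genes, 3 were lower at that level, Pmp22, Prx and Ncmap, and 0 were higher. The share of all genes tested with every Myt1-/- library below every WT library was 5.38%, and 3 of the 9 genes were in this state. The share above every WT library was 8.91%, and Drp2 was the 1 member in it. The log2 difference was below 0 in 8 of the 9 genes, against 42.5% of all genes tested. Their median log2 difference, which is the value of Egr2, was -0.53, beside 0.03 over all genes tested. These counts and this median include Egr2, Ncmap and Pmp2, which reached the filter through their WT levels, so they describe the 9 genes and support nothing further. Without Myt1-/- replicate 2, Pmp22 was the 1 member with an unadjusted p under 0.05, and Prx also missed it without Myt1-/- replicate 3 and Ncmap without WT replicate 1. Pmp22 stayed under it whichever library was left out.

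**Figure D2:**
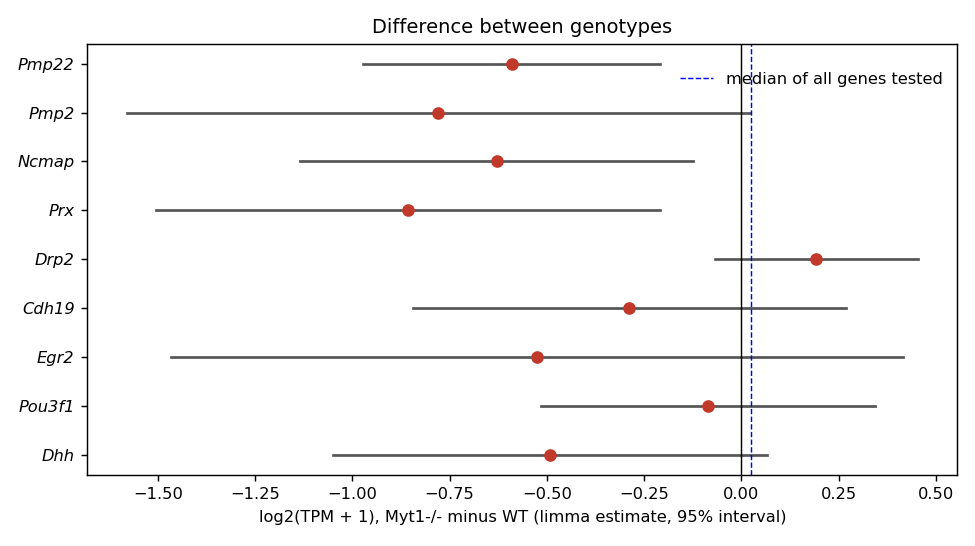
Difference of log2(TPM + 1) between genotypes, Myt1-/- minus WT, for each gene, as the limma estimate (red point) with its 95% interval (line); the dashed line is the median of all genes tested, 0.03. The intervals of Pmp22, Ncmap and Prx lie below 0, and the estimate of Drp2 lies above it at 0.19.

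Read library by library, the 9 genes varied within WT as well as between genotypes. The highest WT library exceeded the lowest 1.85-fold for the median member, against 1.22-fold for the median gene tested, and in Myt1-/- these values were 1.60-fold and 1.15-fold. The genes compared were not matched for level. Of the members with the highest WT means, Pmp22, Drp2 and Pou3f1 had WT ratios of 1.34, 1.29 and 1.31, and Prx of 2.25. WT replicate 1 held the highest level of 6 genes, WT replicate 3 of 2 genes, and WT replicate 2 of 0. WT replicate 2 lay at or below the highest Myt1-/- library in 5 genes, WT replicate 3 in 3 and WT replicate 1 in 1, with Drp2 among them each time. Among the Myt1-/- libraries, replicate 1 held the highest level of 7 genes. Myt1-/- replicate 1 was lower than WT replicate 2 in 5 genes and higher in 4, and lower than WT replicate 1 in 8 genes. Leaving out WT replicate 2 raised the number of genes below every WT library to 6, and leaving out Myt1-/- replicate 1 raised it to 5. With fewer libraries such a number can only stay or rise, for any set of genes. The share over all genes tested was not computed with a library left out, so these counts have nothing to be read against.

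**Figure D3:**
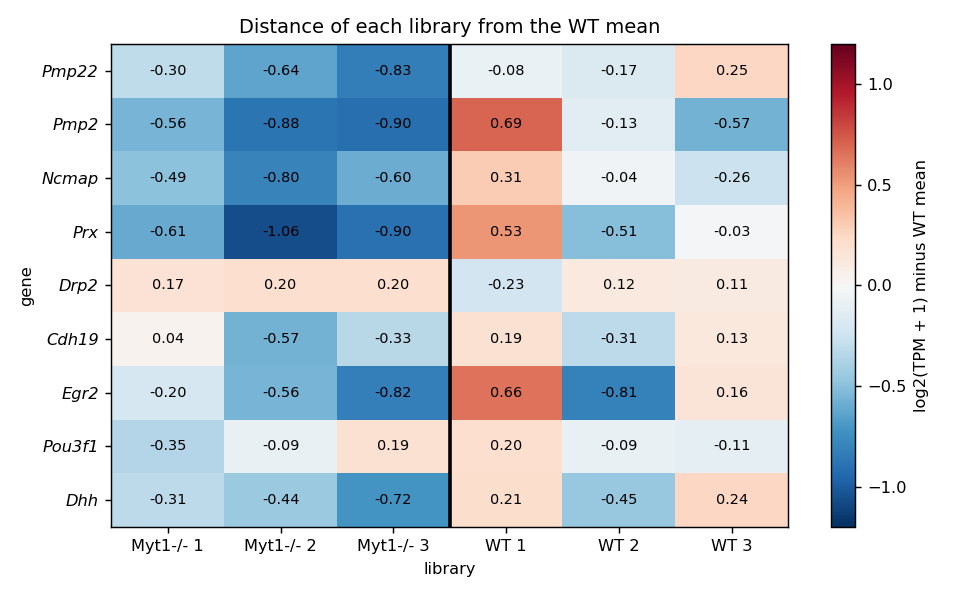
Distance of each library (columns, Myt1-/- left of the black line and WT right of it) from the WT mean of each gene (rows), in log2(TPM + 1); blue is below and red above the WT mean, and each cell gives its value. Prx lies at -0.61, -1.06 and -0.90 in the Myt1-/- libraries, WT replicate 2 is blue for 8 of the genes, and Drp2 runs against the other rows.

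With each gene standardised over the 6 libraries, Prx followed the mean profile of the other 8 members most closely, with a Pearson r of 0.995. Dhh, Egr2, Ncmap, Cdh19, Pmp2 and Pmp22 had r between 0.735 and 0.864. Pou3f1 had an r of 0.086 and Drp2 of -0.91, so these 2 did not vary across libraries with the others that share the Schwann cell label. These r values span 6 libraries of 2 genotypes and are a description. Among genes that are not members and average at least 5 TPM, those whose profile was most like the members' mean included Dnajc19 (r = 0.988), Mapkbp1 (r = 0.981), Nefh (r = 0.981) and Nefm (r = 0.980). Nefh and Nefm encode neurofilament subunits. Nefh had 74.22, 62.33 and 61.43 TPM in the Myt1-/- libraries, against 98.47, 74.85 and 83.22 TPM in the WT libraries, and its libraries were ordered in WT as those of Prx were.

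Regulators that act with Egr2 and Pou3f1 came next. Of 14 tested genes of the Schwann lineage transcription factor list, limma called 0 after adjustment. By unadjusted p under 0.05, 1 was lower and 0 were higher, and the median log2 difference was -0.03. Over all genes tested, 3.13% were lower and 4.32% higher at that level, and the lists below are to be read against the same shares. The lower gene of this list was Sox10, which acts upstream of Egr2 and is also expressed throughout the oligodendrocyte lineage. Sox10 had 28.77, 27.21 and 22.82 TPM in the Myt1-/- libraries, against 43.34, 35.34 and 32.79 TPM in the WT libraries, without overlap. Pou3f2, a close relative of Pou3f1 with an overlapping role in Schwann cells, lay above every WT library, with 10.07, 10.69 and 10.44 TPM in the Myt1-/- libraries, against 8.44, 9.53 and 9.25 TPM in the WT libraries. Nab1 and Nab2, corepressors that bind Egr proteins, overlapped between the groups, with log2 differences of -0.03 and 0.18. Foxd3 and Egr1 also overlapped, with log2 differences of -0.25 and -0.43.

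Of the 10 signals and receptors that connect axons and Schwann cells, 2 were lower at an unadjusted p under 0.05, 0 were higher, and the median log2 difference was -0.22. At that level 3.13% of all genes tested were lower and 4.32% higher. Lgi4, a secreted protein that Schwann cells need to myelinate, had 2.30, 1.76 and 1.86 TPM in the Myt1-/- libraries, against 5.01, 2.70 and 3.60 TPM in the WT libraries, with a log2 difference of -0.66. Lpar1, a lysophosphatidic acid receptor, lay below every WT library with a log2 difference of -0.52. Ngfr, the p75 neurotrophin receptor, and Gfra3, a receptor of artemin, overlapped between the groups. Gfra3 had 3.87, 3.62 and 1.05 TPM in the Myt1-/- libraries, against 4.79, 3.04 and 9.81 TPM in the WT libraries, so it was highest in WT replicate 3 and lowest in Myt1-/- replicate 3. Adgrg6, an adhesion receptor needed for Schwann cell myelination and named here after its values were seen, had 30.58, 5.01 and 4.23 TPM in the Myt1-/- libraries, against 5.47, 4.22 and 7.35 TPM in the WT libraries. Myt1-/- replicate 1 stood alone.

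The dystroglycan, integrin and laminin genes, whose products link periaxin and DRP2 to the basal lamina, held 14 tested members. Of these, 5 were lower and 0 higher at an unadjusted p under 0.05, 6 lay below every WT library, and the median log2 difference was -0.13. Over all genes tested the shares were 3.13% lower, 4.32% higher and 5.38% below every WT library. Dag1, which encodes dystroglycan, had 79.65, 77.17 and 73.46 TPM in the Myt1-/- libraries, against 87.73, 85.76 and 80.41 TPM in the WT libraries, a log2 difference of -0.14. Lama2 and Lamb1, laminin chains, had log2 differences of -0.48 and -0.36. In none of these was the adjusted p by limma under 0.05.

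For the ligand Dhh, the hedgehog response list (10 tested) showed 0 lower and 0 higher genes at an unadjusted p under 0.05 and a median log2 difference of 0.09. Ptch1, the hedgehog receptor and itself a target, had 19.94, 20.86 and 20.57 TPM in the Myt1-/- libraries, against 20.33, 20.95 and 22.79 TPM in the WT libraries. Gli1, a transcription factor that hedgehog signals induce, lay below every WT library with a log2 difference of -0.21. Gli3, another transcription factor of the pathway, lay above every WT library with a log2 difference of 0.13. Hhip, which binds hedgehog ligands, had a log2 difference of 0.13, and Smo of 0.13. The cord has its own source of hedgehog ligand in the floor plate, and these genes respond to all ligands.

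Of 11 tested Schwann cell genes that are not members, 3 were lower and 0 higher at an unadjusted p under 0.05, with a median log2 difference of -0.21. Among all genes tested, 3.13% were lower and 4.32% higher at that level. S100b, a calcium-binding protein of Schwann cells and astrocytes, had 26.13, 18.65 and 16.76 TPM in the Myt1-/- libraries, against 34.45, 28.39 and 28.13 TPM in the WT libraries. Art3 had 10.96, 12.58 and 10.35 TPM in the Myt1-/- libraries, against 21.74, 11.28 and 23.56 TPM in the WT libraries, so WT replicate 2 again lay among the Myt1-/- libraries. Mia had a log2 difference of -0.33. The boundary cap genes Wif1, Hey2 and Prss56, which mark crest-derived cells at the root entry and exit points, had log2 differences of 0.38, 0.26 and -0.26, and of 5 nerve sheath genes 0 were lower or higher at an unadjusted p under 0.05, with a median of -0.04. Among the sheath genes, Itgb4 and Cldn1 had log2 differences of -0.28 and -0.26, Tjp1 of -0.04 and Slc2a1 of 0.11.

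The list of myelin and adhesion genes that are shared with peripheral myelin or close to it, which mixes genes of central and of peripheral myelin, held 14 tested members, 11 of them lower and 0 higher at an unadjusted p under 0.05, with a median log2 difference of -0.66. The shares over all genes tested were 3.13% lower and 4.32% higher. Mbp, which encodes myelin basic protein, had 55.26, 39.82 and 41.04 TPM in the Myt1-/- libraries, against 477.42, 313.80 and 167.93 TPM in the WT libraries. Gal3st1, the sulfotransferase of sulfatide synthesis, had a log2 difference of -0.54, and Cnp of -0.93. Cldn19, a claudin of Schwann cells named here after its values were seen, overlapped between the groups, with 2.60, 2.36 and 1.82 TPM in the Myt1-/- libraries, against 5.85, 2.38 and 4.48 TPM in the WT libraries. Mbp was lowest in WT replicate 3 among the WT libraries and Cldn19 in WT replicate 2; of the 9 genes, 5 were lowest among WT in replicate 2, 3 in replicate 3 and 1 in replicate 1.

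Markers of some other cells also varied between these libraries. All 12 sensory ganglion genes were found, none at 0 in every library, and they summed to between 130 and 308 TPM in the Myt1-/- libraries, against between 256 and 596 TPM in the WT libraries. The highest sum was in WT replicate 3 and the lowest in Myt1-/- replicate 3, where Mrgprd was listed at 0 and Scn10a at 0.04 TPM. Most of that lowest sum came from Prph (67.12 TPM), Calca (29.28 TPM) and Pou4f1 (24.33 TPM), so it understates how low other genes of the list were there. The 9 skeletal muscle genes summed to 204 TPM in Myt1-/- replicate 3, to 13.4 and 18.2 TPM in Myt1-/- replicates 1 and 2, and to between 12.3 and 88.3 TPM in WT. The 10 myelinating oligodendrocyte genes summed to between 154 and 188 TPM in the Myt1-/- libraries, against between 379 and 797 TPM in the WT libraries, without overlap. Mbp and Cnp made up most of this sum. Not every gene of the list followed it: Mog averaged 2.21 TPM in Myt1-/- and 2.18 TPM in WT, and 1 gene, Opalin, was under 1 TPM in every library. The 6 fibroblast genes summed to between 1286 and 1333 TPM in the Myt1-/- libraries, against between 713 and 1977 TPM in the WT libraries, lowest in WT replicate 1. The 5 endothelial genes summed to between 211 and 215 TPM in the Myt1-/- libraries, against between 214 and 229 TPM in WT, and the 5 cord neuron genes to between 1953 and 2002 TPM in Myt1-/-, against between 1928 and 2003 TPM in WT. The 4 astrocyte genes summed to between 908 and 1059 TPM in the Myt1-/- libraries, against between 974 and 1351 TPM in WT, and the 4 genes of melanocytes, another crest derivative, to between 1.67 and 2.31 TPM in Myt1-/-, against between 2.24 and 2.88 TPM in WT. The part of these cells in the levels of the 9 genes was not tested, and in bulk tissue fewer cells of a type and less RNA per cell cannot be told apart.

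**Figure D4:**
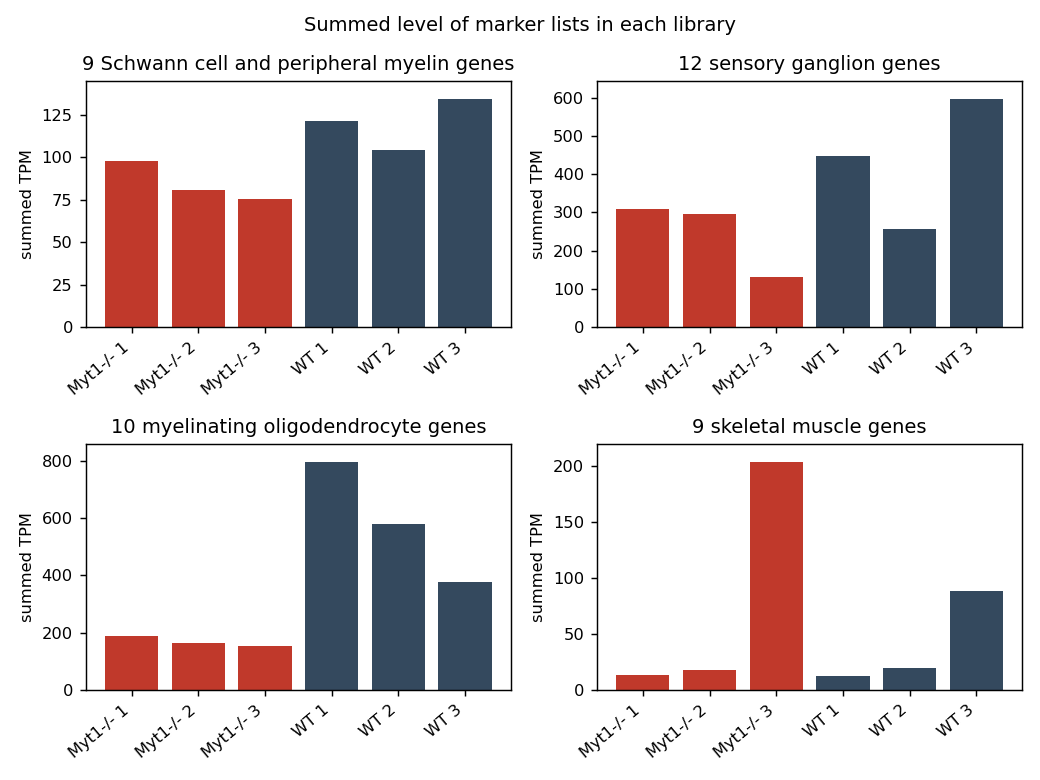
Summed TPM of the 9 Schwann cell and peripheral myelin genes and of 3 marker lists in each library, on axes from 0, Myt1-/- libraries in red on the left and WT libraries in dark blue on the right. The 9 genes sum to between 75.3 and 97.6 TPM in the Myt1-/- libraries, below the WT range of 104 to 134 TPM, and without Pmp22 to between 28.9 and 32.0 TPM in Myt1-/-, against between 32.2 and 44.8 TPM in WT; ganglion genes are lowest and muscle genes highest in Myt1-/- replicate 3.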

How the data were processed

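RNA of thoracic spinal cord was sequenced from 3 Myt1-/- and 3 WT samples, grouped by the sample titles. The authors deposited TPM, 1 value per gene and sample. The programs RSEM and DESeq2 and the build GRCm38.p6 are named per the submitters' processing notes, with no role. The aligner, annotation and read filters: not given in the sources used here. Because TPM are shares, a rise of abundant genes lowers all others. The depth is unknown, so no counting interval is given. Among its columns, 1 holds per-sample values of no labelled sample and was not used. The share of mitochondrially encoded genes was 11.3% of the TPM sum for WT replicate 1 and 8.64% to 9.04% for the others. Positions are from GENCODE M21 (GRCm38).

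From the TPM, limma 3.58.1 (R 4.3.3, variance trend) was fitted on log2(TPM + 1) for the 15962 genes with a mean of at least 1 TPM. The model held genotype alone, with two-sided p-values adjusted by Benjamini-Hochberg over all genes tested; differences are Myt1-/- minus WT, and folds are ratios of mean TPM. Tested on simulated data drawn for these groups (15962 genes, 5 runs), the model recovered 73.2% of genes changed 2-fold and 91.4% of those changed 4-fold on that scale, with 37 false calls over all runs. The simulated noise was independent for each gene and library, without differences shared by many genes of a library. These shares therefore check the model and need not hold for the real libraries. The members and lists were chosen with earlier results of these data known, so counts over them are descriptions. Named were all 9 members, up to 4 genes per list with the smallest p, direct partners of members, and the 5 genes most like the members' mean profile; of these, a few are not reported here but were counted. Alternatives were another pseudocount, other filters, variance priors and scalings, replicate number as a block, and leaving out each library with the set of genes tested kept. Figures were drawn with matplotlib 3.10.9.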

Additional observations from a re-analysis of the deposited data

How the results depend on the processing

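The number of genes past an adjusted p of 0.05, 0 in limma, became 1 with a pseudocount of 0.1 and 1 with robust empirical Bayes, and 0 to 7 with a library left out; none of these was a member. Genes at an unadjusted p under 0.05 numbered 308 to 748 lower and 389 to 916 higher with a library left out, against 499 and 690. Members below every WT library numbered 3 under every scaling and filter tried, and 3 to 6 with a library left out. Leaving out a library cannot lower this number, so its lower end of 3 was fixed in advance. Their median log2 difference, -0.53, ranged from -0.64 to -0.51 over the settings other than leaving out a library and from -0.69 to -0.38 with a library left out. Each member kept its sign in every fit that tested it, except Pou3f1, which ranged from -0.22 to 0.046 with a library left out, at 0.015 without WT replicate 1 and 0.046 without Myt1-/- replicate 1. Pmp2 could not be tested with the filter of 1 TPM in 3 samples.

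Over genes, same-numbered libraries did not deviate together from their group means (r = 0.031, -0.070 and 0.061 for replicates 1, 2 and 3). Myt1-/- replicate 1 correlated best with WT replicate 2. These correlations gave no sign of pairing by number but cannot exclude it. The members' mean standardised level fell in the order of replicates 1, 3 and 2 in both genotypes. It was -0.18, -0.58 and -0.73 in Myt1-/-, and 1.04, 0.55 and -0.10 in WT. Whether same-numbered libraries share a litter or batch was not tested. With the replicate block, 489 genes were lower and 651 higher at an unadjusted p under 0.05, and 0 passed an adjusted p of 0.05. The median log2 difference of members was -0.53. In this limma fit 4 members had an unadjusted p under 0.05. It was smaller than without the block for Prx (0.0034) and Pmp2 (0.028), and larger for Pmp22 (0.021) and Ncmap (0.029). Without counts, values near 1 TPM have no known counting error, which limits Egr2, Ncmap, Pmp2 and Cdh19 most.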
